A study of Homo sapiens with 4 samples.

Results

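The genes described here are the receptors of the epidermal growth factor (EGF) receptor family and 6 of their ligands. They were taken by gene name as 10 of the 60623 genes in the deposited table, and comprise the 4 receptors EGFR, ERBB2, ERBB3 and ERBB4 and the ligands TGFA, EREG, AREG, HBEGF, BTC and NRG1. All 10 were found. RNA was measured in T24, an established line of human bladder carcinoma cells. In 2 libraries miR-146a-5p, a microRNA, was overexpressed, and the other 2 libraries came from cells of the same line that received a scramble control. The series design names a transfected mimic as the means, while the sample labels name overexpression only. All 4 libraries come from this single line, so the values describe T24 cells and no other bladder tumour. The level of mature miR-146a-5p was not analysed here.

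EGF family ligands are made as membrane-anchored precursors that proteases such as ADAM17 and ADAM10 cut loose. TGFA and AREG bind EGFR, while HBEGF, BTC and EREG bind EGFR and ERBB4, and NRG1 binds ERBB3 and ERBB4. ERBB2 has no known ligand and is the preferred partner of the other receptors, and ERBB3 has little kinase activity of its own and signals through such partners. Receptor pairs drive the RAS-ERK and AKT pathways, and in the bladder EGFR is known as a receptor of basal urothelium and of basal-like tumours.

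A microRNA pairs with its targets mainly through the seed, bases 2 to 8, shown here in capitals because the members of the family differ in whether they carry its complement. The mature sequence is from RefSeq (GRCh38.p14, chromosome 5).
miR-146a-5p: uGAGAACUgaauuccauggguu
The complement of the seed is AGTTCTC, counted here as an 8-mer where an A follows it (AGTTCTCA) and as a 7-mer without that A or, lacking its first base, with it (GTTCTCA). For each gene the longest coding transcript in GENCODE 29 was taken, and its 3' UTR was read on the transcript strand only. Of the 10 genes, 3 held a match, namely EGFR, ERBB4 and NRG1, while 21.0% of the 12386 tested genes with a 3' UTR there held at least 1. An 8-mer was present in EGFR and in ERBB4, and in 4.77% of those tested genes. These shares take no account of length, and a longer 3' UTR has more places for a match. ERBB4 (7898 bases) and EGFR (6011) have the longest 3' UTRs of the family, and AREG (269) and ERBB2 (317) the shortest. EREG (3943) and TGFA (3579), without a match, are longer than NRG1 (3557). The 3' UTRs of TGFA, EREG, AREG, HBEGF, BTC, ERBB2 and ERBB3 held none of these letters. The sites below are from GRCh38, on the plus strand for EGFR and the minus strand for ERBB4, with the match in capitals.
EGFR 8-mer (chr7:55208168-55208175): cttcccaaaatAGTTCTCActtcatctgtc
EGFR 7-mer with the final A (chr7:55208810-55208816): gaaaggcactgGTTCTCAagggcggctgcc
EGFR 7-mer matching bases 2 to 8 (chr7:55209768-55209774): ttgcgggatatAGTTCTCtttatgtagcac
ERBB4 8-mer (chr2:211375916-211375923): gcttttccgttAGTTCTCAaggatcctctt

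Total estimated counts were between 20290055 and 22774090 per library. The libraries carried the epithelial keratins KRT7, KRT8 and KRT18 at between 11827 and 66054 counts each. Keratin KRT5 had 0 counts in every library and KRT20 at most 1. The uroplakins of differentiated urothelium (UPK1A, UPK1B, UPK2 and UPK3A) had at most 3 counts in any library and the epithelial cadherin CDH1 at most 2. EPCAM had between 19 and 32 counts, and GATA3 between 5 and 25. Other markers of the list were expressed. KRT19 had 340 and 294 counts with miR-146a-5p against 713 and 969 with scramble. FOXA1 had 556 and 529 against 714 and 897, and PPARG 615 and 574 against 913 and 1035. Of 15 urothelial and epithelial markers, 8 had at least 10 counts in a library, and their summed level was 3617 and 3355 TPM with miR-146a-5p and 3656 and 4708 TPM with scramble. Summed levels of other lineages were low. They were 1.72 and 2.77 TPM with miR-146a-5p and 1.96 and 1.27 TPM with scramble for 8 fibroblast markers, 1.64 and 1.04 TPM against 1.14 and 2.71 TPM for 8 leukocyte markers, and 0.20 and 0.41 TPM against 0.15 and 0.65 TPM for 6 endothelial markers. These are bulk values, in which fewer cells of a kind and less RNA per cell cannot be told apart. Scramble replicate 2 stood apart from the other libraries. It correlated with scramble replicate 1 at a Pearson r of 0.925 across genes, against 0.989 between the miR-146a-5p replicates. Scramble replicate 1 was closer to the miR-146a-5p libraries (0.979 and 0.981) than to scramble replicate 2, which correlated with them at 0.942 and 0.936. Scramble replicate 2 was also lower than scramble replicate 1 by a median of 1.53 on the log2 scale in the GC-poorest quintile of tested genes, and higher by 0.51 in the GC-richest. No label states that replicates are separate cultures. The p-values therefore measure the spread between these libraries only, which may be technical.

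Levels of different genes were compared as TPM, the authors' abundance scaled by length and library. EGFR was the most abundant member. It was at 53.5 and 60.0 TPM in the miR-146a-5p libraries and at 91.3 and 57.9 TPM in the scramble libraries. ERBB2 came next, at 35.4 and 39.9 TPM with miR-146a-5p and 40.2 TPM in both scramble libraries. Below these 2 receptors lay a group of ligands near 10 TPM or less together with ERBB3, and at the foot BTC and ERBB4. Mean TPM over the 4 libraries was 9.81 for HBEGF, 9.69 for NRG1, 8.11 for TGFA, 5.71 for EREG, 3.87 for AREG, 3.73 for ERBB3, 1.14 for BTC and 0.025 for ERBB4. Of the 9 pairs of neighbours in that order, 4 were separate in all 4 libraries: EGFR from ERBB2, ERBB2 from HBEGF, ERBB3 from BTC and BTC from ERBB4. The other 5 pairs, from HBEGF down to ERBB3, overlapped over the libraries. TGFA had rank 3 in the miR-146a-5p libraries, with a mean of 11.8 ± 2.02 TPM, and rank 5 in the scramble libraries, with 4.44 ± 0.226 TPM (SD, n = 2 each).

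**Figure D1:**
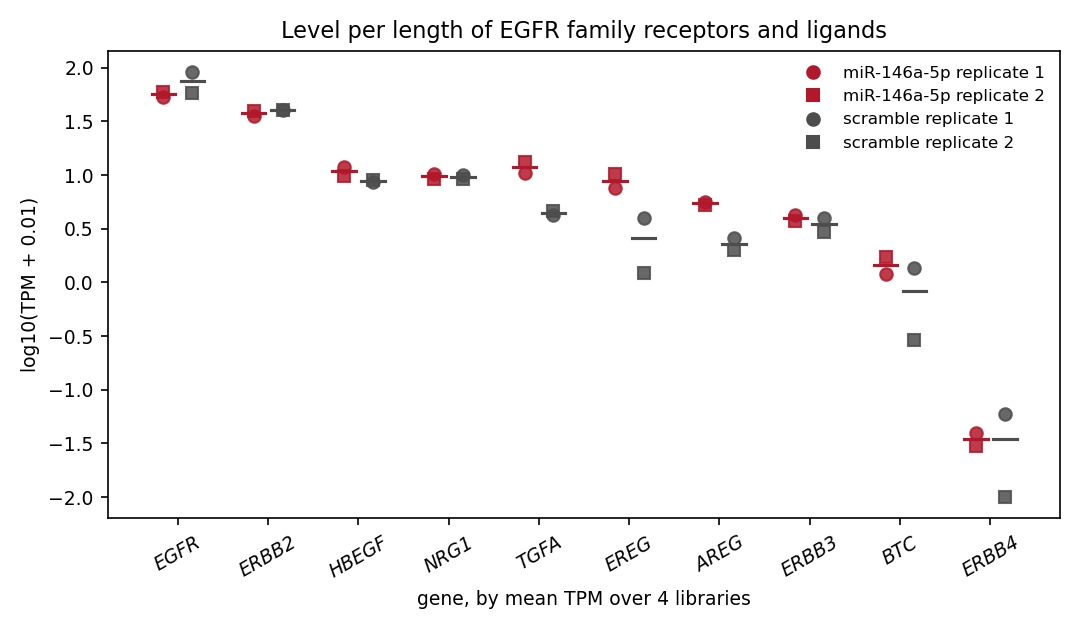
Level per length of the 10 genes as log10(TPM + 0.01), with miR-146a-5p libraries in red to the left and scramble libraries in grey to the right of each gene, circles for replicate 1, squares for replicate 2 and a line at the log10 value of the group's mean TPM. EGFR and ERBB2 lie above every other member in every library, and ERBB4 lies at the foot. TGFA, EREG, AREG and, by a narrow margin, HBEGF lie higher in both miR-146a-5p libraries, and ERBB2 lies narrowly lower in both.

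Changes between the groups were tested on estimated counts over all genes. With edgeR's quasi-likelihood test no member was called, and 0 of all 14810 genes tested were (0% at an adjusted p under 0.05). The smallest adjusted p in that fit was 0.728, and 549 genes had an unadjusted p under 0.05. DESeq2, the tool named in the submitters' processing notes, called 44 genes higher and 8 lower (0.274% and 0.0499% of the 16044 genes to which it gave an adjusted p), and 1 of the 10 genes, TGFA, was among the 44. Limma-voom called 0 genes. To compare a gene between libraries, CPM values are used below, which are counts scaled by library size and not by length.

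TGFA, transforming growth factor alpha, rose by DESeq2. It had 617 and 672 estimated counts with miR-146a-5p against 235 and 286 in scramble cells, which is 28.8 and 32.9 CPM against 10.5 and 12.6 CPM. Both miR-146a-5p libraries lay well above both scramble libraries, and the replicates of each group were close to each other. The mean was 2.68-fold higher (30.9 ± 2.88 CPM with miR-146a-5p, 11.5 ± 1.45 CPM with scramble; SD, n = 2 each). DESeq2 gave a log2 fold change of 1.40 ± 0.34 (SE; adjusted p = 0.0169), and edgeR gave 1.42 ± 0.23 (adjusted p = 0.959). With either miR-146a-5p library left out, DESeq2 did not call TGFA. Against scramble replicates 1 and 2 alone the edgeR log2 fold change was 1.57 and 1.30. Such fits take the spread of the miR-146a-5p pair for the lone scramble library, so they are no test of TGFA. The authors' deposited table lists TGFA with a log2 fold change of 1.40 and an adjusted p of 0.0172.

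EREG, epiregulin, had the largest fold change among the 9 tested genes, with scramble libraries that lay far apart. It was at 26.9 and 36.0 CPM with miR-146a-5p, against 13.7 and 4.83 CPM in scramble replicates 1 and 2. Both miR-146a-5p libraries were above both scramble libraries, but the scramble replicates differed 2.83-fold from each other. The log2 fold change was 1.76 ± 0.57 (SE) by edgeR (adjusted p = 0.970) and 1.74 ± 0.63 by DESeq2 (adjusted p = 0.721), and neither tool called it. Its transcript is GC-poor (36.1% GC, in the lowest quintile of tested genes), and the scramble libraries differed by -1.48 on the log2 scale for EREG against a median of -1.53 for that quintile. Against scramble replicate 1 alone the log2 fold change was 1.21, against scramble replicate 2 alone it was 2.70, and with offsets for GC content and length it was 1.37 ± 0.18 (SE, edgeR adjusted p = 0.267). A fit against a lone scramble library takes its spread from the miR-146a-5p pair, so only its effect size is read here.

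AREG, amphiregulin, was less abundant and close between replicates. The genome build named by the authors, hg19, carries a near-identical copy of AREG, so its level is uncertain where reads could be shared. It had 99 and 85 estimated counts with miR-146a-5p against 45 and 41 with scramble, or 4.62 and 4.16 CPM against 2.01 and 1.80 CPM. The groups were separate, by a margin larger than the spread within either pair. The log2 fold change was 1.20 ± 0.27 (SE, edgeR adjusted p = 0.970), and 1.18 ± 0.48 by DESeq2 (adjusted p = 1.00), so AREG was not called. It was 1.14 and 1.29 against scramble replicates 1 and 2 alone. These values rest on a lone scramble library, with the spread taken from the miR-146a-5p pair, and are no test of AREG.

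**Figure D2:**
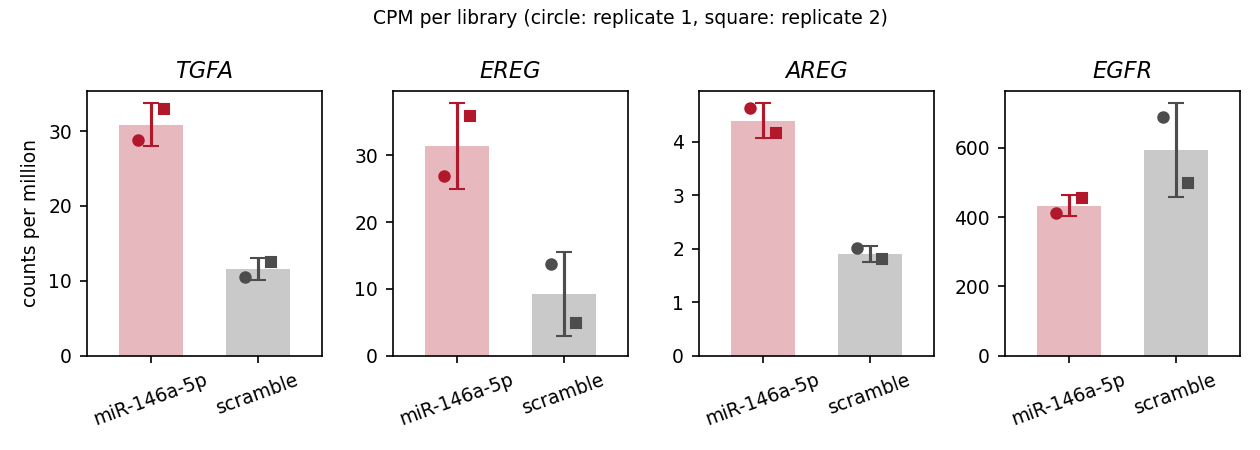
CPM of TGFA, EREG, AREG and EGFR in each library, with bars at the group mean, error bars of 1 SD (n = 2) and a separate axis from 0 for each gene. The 3 ligands are higher in both miR-146a-5p libraries than in both scramble libraries, the scramble libraries of EREG are apart at 13.7 and 4.83 CPM, and EGFR is lower with miR-146a-5p by less than the distance between its scramble libraries.

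HBEGF, heparin-binding EGF-like growth factor, was at 21.1 and 17.0 CPM with miR-146a-5p and 14.4 and 16.8 CPM with scramble. The lower miR-146a-5p library was barely above the higher scramble library, and the log2 fold change was 0.29 ± 0.24 (SE, edgeR adjusted p = 0.970). BTC, betacellulin, had 44 and 49 estimated counts with miR-146a-5p against 53 and 14 with scramble, or 2.06 and 2.40 CPM against 2.37 and 0.615 CPM. Its groups overlapped, with scramble replicate 1 between the miR-146a-5p libraries in CPM and scramble replicate 2 below them. BTC is also in the lowest quintile of GC content (40.2% GC), and its log2 fold change of 0.58 ± 0.70 by edgeR (adjusted p = 0.970) was -0.08 against scramble replicate 1 alone and 1.85 against replicate 2 alone. NRG1, neuregulin 1, overlapped between groups, at 24.4 and 23.9 CPM with miR-146a-5p and 28.7 and 23.8 CPM with scramble. Its log2 fold change was -0.12 ± 0.21 (SE, edgeR adjusted p = 0.970), the sign differed against scramble replicate 2 alone (0.03), and NRG1 is the 1 ligand here whose 3' UTR held a seed match.

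The 5 members that are ligands of EGFR (TGFA, EREG, AREG, HBEGF and BTC) were summed, without EGF and EPGN. Their summed level was 36.5 and 40.2 TPM in the miR-146a-5p libraries, against 20.8 and 17.1 TPM in the scramble libraries. TGFA made up 28.3% and 32.9% of that sum with miR-146a-5p and 20.6% and 27.0% with scramble. The sum is a description, since its members were chosen with earlier results of these data known.

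EGFR and ERBB4 are the receptors whose 3' UTR held seed matches, 3 each, of which the 3 of EGFR and the 8-mer of ERBB4 are shown above. EGFR had 8812 and 9286 estimated counts with miR-146a-5p against 15433 and 11335 with scramble, or 412 and 455 CPM against 690 and 498 CPM. Both miR-146a-5p libraries were below both scramble libraries, by less than the scramble libraries differed from each other. The log2 fold change was -0.46 ± 0.22 (SE, edgeR adjusted p = 0.970), and -0.48 ± 0.36 by DESeq2 (adjusted p = 1.00), and EGFR was not called. Against scramble replicate 1 alone the log2 fold change was -0.66, and against replicate 2 alone it was -0.20. A lone scramble library gives no spread of its own, so these values carry no test. The separation did not hold per length, where miR-146a-5p replicate 2 (60.0 TPM) was above scramble replicate 2 (57.9 TPM).

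ERBB2 was at 113 CPM in both miR-146a-5p libraries and at 102 and 141 CPM in the scramble libraries. The scramble values lay on either side of the miR-146a-5p values, and the log2 fold change of -0.11 ± 0.23 (SE, edgeR adjusted p = 0.972) was 0.15 against scramble replicate 1 alone and -0.32 against replicate 2 alone. ERBB3 was at 9.71 and 9.74 CPM with miR-146a-5p and at 7.73 and 9.53 CPM with scramble. Its groups were separate by a narrow margin, with a log2 fold change of 0.17 ± 0.24 (SE, edgeR adjusted p = 0.970). ERBB4 had 7 and 4 estimated counts with miR-146a-5p and 10 and 1 with scramble. These counts are too few for the filter on low values, and a difference was not detectable at this depth.

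**Figure D3:**
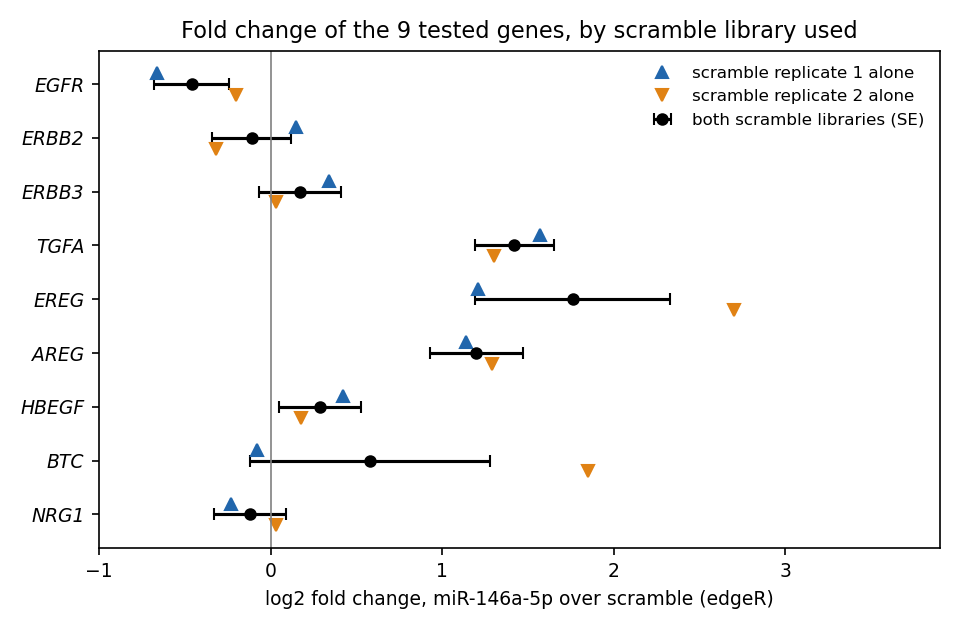
Log2 fold change of the 9 tested genes, miR-146a-5p over scramble, by edgeR with both scramble libraries (black, bars of 1 SE) and against scramble replicate 1 (blue) or 2 (orange) alone. TGFA and AREG stay above 1 against either scramble library, EREG lies at 1.21 and 2.70, and ERBB2, BTC and NRG1 change sign.

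Across the family, 9 of the 10 genes passed the filter on low values, 3 receptors and 6 ligands. Both miR-146a-5p libraries were above both scramble libraries for 5 of the 9 (TGFA, EREG, AREG, HBEGF and ERBB3), against 18.0% of all tested genes, and below both for 1 (EGFR), against 17.9%. In the edgeR fit 3 of the 9 were higher at an unadjusted p under 0.05 (TGFA 0.00271, AREG 0.0102 and EREG 0.0335), against 2.05% of all tested genes. The median log2 fold change was 0.89 over the 6 ligands and -0.11 over the 3 tested receptors, against 0.00 over all tested genes. These counts describe genes chosen with earlier results known and carry no test of the list.

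**Figure D4:**
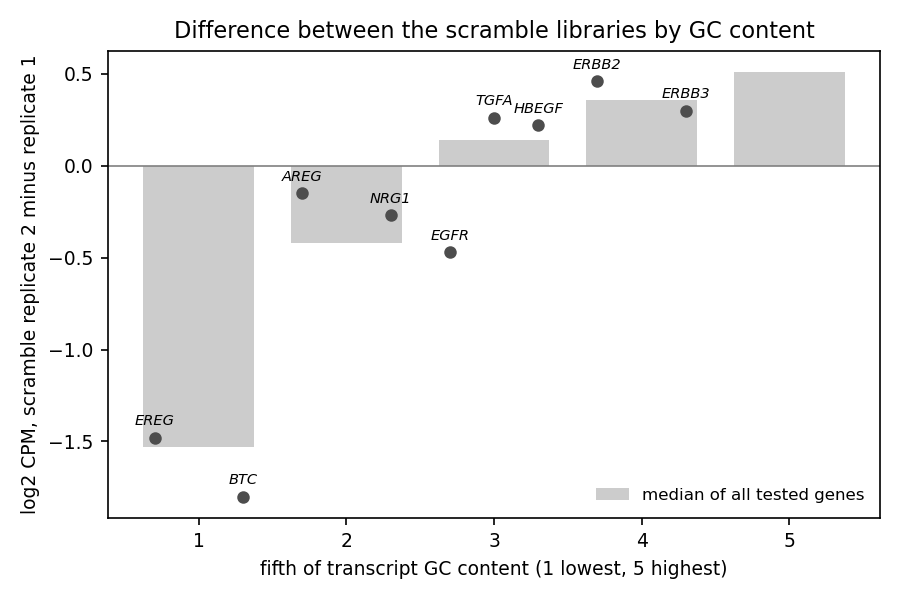
Difference of log2 CPM between scramble replicate 2 and scramble replicate 1 by quintile of transcript GC content, with grey bars at the median of all tested genes and points for the 9 tested members. EREG (-1.48) and BTC (-1.80) lie near the median of the lowest quintile (-1.53), and EGFR (-0.47) lies below the median of the middle quintile (0.14).

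EREG, AREG and BTC lie next to each other on chromosome 4, in the order EPGN, EREG, AREG and BTC among protein-coding genes in GENCODE 29. EPGN, which encodes the ligand epigen, had 1.00 and 1.07 estimated counts with miR-146a-5p and 0 with scramble. Upstream of EPGN, MTHFD2L, a mitochondrial folate enzyme, had a log2 fold change of 0.47 ± 0.33 (SE) and was not called by edgeR or DESeq2. The stretch from CXCL8 to BTC holds 14 protein-coding genes, and 5 of the 6 CXC chemokine genes tested in it (CXCL8, CXCL6, CXCL1, CXCL3 and CXCL2) rose by DESeq2, while CXCL5 did not pass (DESeq2 adjusted p = 0.16). edgeR called 0 of them. This stretch was picked after its values were seen.

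The upstream sequences of TGFA, EREG and AREG, the 3 members with the largest fold changes, are shown because these genes differ in the motifs found there. RefSeq windows (GRCh38.p14) of 250 bases before to 50 after a transcription start were found for 8 of the 10 genes, in 10 windows, and not for ERBB3 and NRG1. Both strands were searched for a TATA box (TATAAA), a GC box (GGGCGG), an AP-1 site (TGANTCA), a cAMP response element (TGACGTCA) and the kappaB consensus. The 250 upstream bases are printed, with matches other than the GC box in capitals.
TGFA (chr2:70553827-70554076, minus strand): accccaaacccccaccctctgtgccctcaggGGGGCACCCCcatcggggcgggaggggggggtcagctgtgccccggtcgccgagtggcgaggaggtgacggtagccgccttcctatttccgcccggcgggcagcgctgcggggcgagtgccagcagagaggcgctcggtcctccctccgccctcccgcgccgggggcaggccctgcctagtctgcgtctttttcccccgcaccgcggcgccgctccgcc
EREG (chr4:74364895-74365144, plus strand): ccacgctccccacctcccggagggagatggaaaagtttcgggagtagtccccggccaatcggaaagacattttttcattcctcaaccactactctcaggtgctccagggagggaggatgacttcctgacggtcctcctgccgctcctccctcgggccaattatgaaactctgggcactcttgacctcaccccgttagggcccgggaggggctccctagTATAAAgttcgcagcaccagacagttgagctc
AREG (chr4:74444886-74445135, plus strand): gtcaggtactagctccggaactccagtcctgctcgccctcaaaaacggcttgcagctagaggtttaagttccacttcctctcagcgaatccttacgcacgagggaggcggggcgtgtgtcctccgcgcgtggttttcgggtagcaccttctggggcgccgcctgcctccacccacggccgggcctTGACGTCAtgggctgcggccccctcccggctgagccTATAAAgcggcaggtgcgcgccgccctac
EREG and AREG each held a TATAAA, which began at -32 and -29 from the start and was present in 11.5% of all 35116 windows. AREG also held a TGACGTCA, at -65 from the start, which 1.85% of windows held. TGFA held no TATAAA. Of its 2 windows, the first, shown here, held 4 GC boxes (present in 45.0% of windows), of which 1 lies past the start, and a kappaB match beginning at -219 (in 11.3% of windows). The AP-1 letters, in 7.71% of windows, were in none of these 3 windows and were in ERBB2 and in the second of the 2 EGFR windows. The kappaB consensus was also in BTC, whose groups overlapped, beginning at -90 and at -23. GC boxes were also in windows of EGFR, ERBB4, AREG, HBEGF and BTC. No 2 different motifs overlapped in the windows of the family. A match is a run of letters and not a measured binding site.

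Genes around the receptors were read from 7 further lists. None had a gene called by edgeR. Of the 5 other ErbB ligands listed, EGF (7 and 12 counts with miR-146a-5p, 7 in both scramble libraries), EPGN and NRG3 (0 counts in every library) were not tested, and NRG2 (9.29 and 7.10 CPM with miR-146a-5p, 8.85 and 13.9 CPM with scramble) and NRG4 overlapped between groups and were not called.

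Among 22 receptor adaptors and proximal signalling genes, all tested, 1 rose by DESeq2 and 21 did not pass. It was GRB10, an adaptor that binds activated receptor tyrosine kinases, at 84.9 and 83.7 CPM with miR-146a-5p against 31.2 and 32.0 CPM with scramble. Its replicates nearly coincided in both groups. DESeq2 gave a log2 fold change of 1.40 ± 0.29 (SE; adjusted p = 0.00150), edgeR did not call it (adjusted p = 0.959), and the DESeq2 adjusted p was 1 when either miR-146a-5p library was left out. The lowest log2 fold change of this list, chosen after the values were seen, was that of PIK3R2, a regulatory subunit of PI3 kinase (-1.81 ± 1.16 SE by edgeR). PIK3R2 was at 8.50 and 0.587 CPM with miR-146a-5p against 15.1 and 16.9 CPM with scramble, and it was not called by edgeR or DESeq2. The list's median log2 fold change was -0.02.

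The proteins that release the ligands showed no called gene among 13 tested, with a median of -0.03. TIMP3, an inhibitor of ADAM17, was at 46.3 and 44.4 CPM with miR-146a-5p against 74.9 and 104.5 CPM with scramble (log2 fold change -0.98 ± 0.25 SE, edgeR adjusted p = 0.970). FRMD8, which stabilises the iRhom partners of ADAM17, was at 36.4 and 37.9 CPM against 63.9 and 89.6 CPM (-1.05 ± 0.25 SE, edgeR adjusted p = 0.970). Both were separate between groups and neither was called by edgeR or DESeq2.

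No gene of the RAS-ERK and AKT core (18 tested, median log2 fold change 0.02, range -0.51 to 0.47) or of receptor turnover and inhibition (22 tested, median 0.15) was called. The smallest p in the core belonged to AKT2, a kinase of the AKT pathway (69.0 and 68.0 CPM with miR-146a-5p, 79.5 and 107 CPM with scramble), and to MAP2K2, which activates ERK (61.6 and 60.8 CPM, against 68.6 and 106 CPM). In the turnover list they belonged to PTPN1, a phosphatase that acts on EGFR (169 and 167 CPM with miR-146a-5p, against 221 and 249.9 CPM with scramble), and to HGS, an endosomal sorting protein (201 and 185 CPM, against 196 and 282 CPM).

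Of 20 transcripts that respond to ERK, all tested, 5 lay above and 5 below both scramble libraries, a share near that over all tested genes (18.0% above and 17.9% below), and 10 overlapped. Of the 20, 0 were called by edgeR or DESeq2, and the median log2 fold change was -0.09. An unadjusted edgeR p under 0.05 was found for 3 of the 20, against 549 of all 14810 tested genes. The list was chosen with earlier results known, so these counts carry no test of it. DUSP5, a phosphatase that inactivates ERK, was at 6.12 and 6.80 CPM with miR-146a-5p against 12.96 and 17.7 CPM with scramble (log2 fold change -1.24 ± 0.27 SE, edgeR adjusted p = 0.970), and LIF, a cytokine, at 330 and 313 CPM against 154 and 216 CPM (0.80 ± 0.23 SE, edgeR adjusted p = 0.970). Of 8 partner receptors, 0 were called by edgeR or DESeq2. IGF1R, the insulin-like growth factor receptor, was at 34.5 and 33.0 CPM with miR-146a-5p against 23.2 and 22.7 CPM with scramble, and FGFR3, a fibroblast growth factor receptor, at 1.87 and 1.86 CPM against 0.626 and 1.01 CPM. On the authors' TPM the order of the FGFR3 groups was the other way, at 0.66 and 0.62 TPM with miR-146a-5p against 0.70 and 0.84 TPM with scramble.

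**Figure D5:**
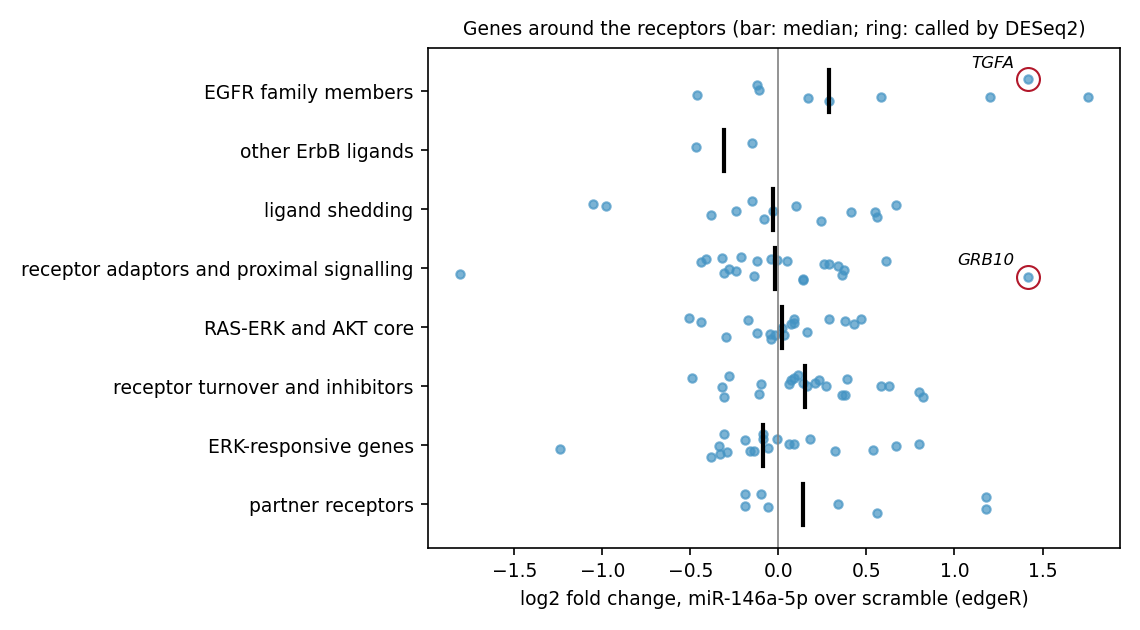
Log2 fold change by edgeR, miR-146a-5p over scramble, of every tested gene in the family and in the 7 further lists, with a black bar at the list's median and a red ring on genes called by DESeq2. TGFA and GRB10 carry the rings, and the medians of the 7 further lists lie between -0.31 and 0.15.

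The genes whose pattern was most like that of a member were found by Euclidean distance of centred log2 CPM over the 4 libraries, among 13264 other genes with a mean of at least 1 CPM. Nearest to EGFR were EYA3 (distance 0.0524), HDHD2 (0.0546) and SSR3 (0.0638). SSR3, a subunit of the translocon-associated complex, was at 270.2 and 292 CPM with miR-146a-5p against 428 and 326 CPM with scramble, and showed the same order of libraries as EGFR. Nearest to TGFA were CTSS, the protease cathepsin S (0.134), TNFAIP3, a ubiquitin-editing enzyme (0.162), and ADAP1 (0.196). TNFAIP3 was at 50.3 and 52.6 CPM with miR-146a-5p against 19.7 and 22.1 CPM with scramble. These distances rest on 4 libraries and are a description.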

How the data were processed

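RNA was sequenced from 2 miR-146a-5p and 2 scramble libraries, made from 1 ug of total RNA each, per the labels' protocols. Tools listed without role or order in the submitters' processing notes are HISAT2 2.0.1, cutadapt 1.9.1, DESeq2 and HTSeq 0.6.1, and the build is hg19. The authors deposited an estimated count per gene and library, 34.3% of them fractional (tolerance 1e-06) in genes detected in all 4 libraries, and TPM per library and group. Neither the tool behind the fractions nor the annotation release is stated, so reads may be shared between similar genes. The authors also deposited a fold ratio per gene (miR-146a-5p divided by scramble), its log2 fold change, a p-value and an adjusted p-value.

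Groups and replicate numbers came from the sample titles. Counts were rounded to whole numbers. Genes were kept by filterByExpr (minimum count 10, minimum total 15) and tested with edgeR 4.0.16 (R 4.3.3, TMM, group as the only term, two-sided, Benjamini-Hochberg threshold 0.05). Standard errors were derived from the F statistic. DESeq2 1.42.0 on all genes and limma-voom (limma 3.58.1) were alternatives, as were DESeq2 size factors, no filter, each library left out, a replicate block, and offsets from splines on GC content and length of the longest transcript (GENCODE 29). Log2 CPM used a prior count of 2. The members and lists were chosen with earlier results of these data known. The named genes were all members, list genes past the threshold by either tool or otherwise the 2 with the smallest p, and the 3 genes nearest to EGFR and to TGFA. Coordinates are from GRCh38 and none from the authors' build.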

Additional observations from a re-analysis of the deposited data

How the results depend on the processing

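Of the 135 alternative values for the 9 tested members, 109 kept direction and side of the threshold. A further 19 passed a threshold that the full edgeR fit did not. Of these, only those of TGFA by DESeq2, on all genes and on the genes edgeR tested, used all 4 libraries. The rest left out a scramble library and took their spread from the miR-146a-5p pair. The remaining 7 values had the other sign. These were ERBB2 (0.14 with GC and length offsets, and 0.15 by edgeR and 0.14 by DESeq2 without scramble replicate 2), BTC (-0.08 by edgeR and -0.09 by DESeq2 without scramble replicate 2) and NRG1 (0.03 by edgeR and 0.02 by DESeq2 without scramble replicate 1), and the cause was not tested. edgeR called 0 genes with 4 libraries. DESeq2 called 52 genes and 1 member, and 68 genes and 1 member on the genes edgeR tested, a setting chosen after seeing the data. With a library left out the count of genes was between 2 and 8421 and that of members between 0 and 6, the highest without scramble replicate 1 (edgeR 8421 genes and 6 members, DESeq2 5349 and 3), a fit that takes the spread of the miR-146a-5p pair for the lone scramble library. Without scramble replicate 2 edgeR called 3343 genes and 5 members, and DESeq2 1107 and 3. Without miR-146a-5p replicate 1 or 2 edgeR called 12 or 8 genes, DESeq2 2 each, and both tools 0 members. The fits without scramble replicate 2 also take the spread of the miR-146a-5p pair for a lone scramble library. With the replicate block edgeR called 5 genes and 0 members. Whether equal replicate numbers share a culture is not labelled, and the deviations of same-numbered libraries correlated at -0.146. With the numbers crossed, also chosen after seeing the data, it called 0 genes and 0 members. The number of neighbours in the order of levels that were separate was within 1.5 times in CPM. Depth limited ERBB4, at 10 counts or fewer in each library.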

Other observations

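The scale on which a receptor is read changed how its groups lay. On CPM EGFR was lower in both miR-146a-5p libraries than in both scramble libraries, ERBB2 overlapped and ERBB3 was higher, whereas on the authors' TPM EGFR and ERBB3 overlapped and ERBB2 was lower. The estimated count behind 1 TPM, set against the library's median gene, was 1.82 and 1.66 for ERBB2 with miR-146a-5p and 1.54 and 1.9 with scramble, and 1.33 and 1.53 for ERBB3 with miR-146a-5p and 1.17 and 1.75 with scramble. For EGFR it was 4.41 and 4.45 with miR-146a-5p and 4.57 and 4.68 with scramble, and for TGFA 1.6 and 1.46 with miR-146a-5p and 1.48 and 1.49 with scramble.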
